A study of Vitis vinifera with 2 samples.

Results

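MYB24 binding events that kept their strength when the alternative haplotype was added to the mapping target are described here for the grapevine 'Cabernet Sauvignon'. They were chosen from 2 event lists deposited for the same MYB24 library, with log2 strength ratios formed as diploid over primary-only. An event of the list made on primary contigs (the primary-only list) was taken when the nearest event in the list that also covers haplotigs (the diploid list) lay at most 100 bp away on the same contig and the log2 strength ratio was -0.25 or higher. This gave 1776 unchanged events out of 6663 primary-only events, a share of 26.7% (95% Wilson interval 25.6 to 27.7%). Of the remaining primary-only events, 1153 were weakened, with a counterpart and a lower ratio, and 3734 were lost, with no diploid event within 100 bp.

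The study used DNA affinity purification sequencing (DAP-seq) on 2 groups of 1 library each. In the MYB24 library, HALO-tagged VvMYB24 (gene Vitvi14g01750), made in rabbit reticulocyte lysate, was held on beads and mixed with fragmented, adapter-ligated DNA from young leaves of clone 08. The control library, pIXHALO, had the tag alone, and its own events were not analysed here. Both libraries carry the same DNA source label, and the DNA was naked, so neither chromatin nor a living cell enters the measurement.

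MYB24 belongs to the R2R3-MYB family, plant transcription factors that bind DNA through a pair of MYB repeats. Its close relatives in Arabidopsis act in stamen and flower development downstream of jasmonate, and the series places MYB24 in terpene and flavonol metabolism of berries. Cultivated grapevine is highly heterozygous, so its assembly is split into primary contigs, which carry a version of each locus, and haplotigs, which carry the alternative version where the assembler could separate it. Reads from the alternative haplotype can be placed on the primary contig when no haplotig is offered, and on the haplotig when it is. Neither sequence nor gene models of this assembly were used here, so events are given by contig and position (Cabernet Sauvignon clone 08 assembly, version 1.1) without gene, exon or motif annotation.

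Strength below means the signal value deposited with an event, on the authors' scale. Both lists start at a −log10 q of 2, and they held 4042 diploid events on 427 primary contigs, 2060 diploid events on 424 haplotigs and 6663 primary-only events. Read depth is unknown. The lists share their library and there is no replicate, so no comparison below carries a p-value. Intervals on shares are 95% Wilson intervals, which cover counting error only, with events taken as independent. Strengths and −log10 p or q served in the choice of the events or come from the same contrast, and they are given as a description.

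Most unchanged events had the same strength to within 1 unit in both lists. Of the 1776, 793 (44.7%, 42.4 to 46.97%) had exactly equal strengths, 556 were lower and 427 higher in the diploid list. Strengths differed by at most 1 unit at 1243 events. The log2 ratio had a median of 0, with quartiles of -0.01 and 0, and among the 2929 matched events 60.6% were at or above the limit. Median strength was 41 in the diploid list and 40.5 in the primary-only list for unchanged events, and 28 in the diploid list and 69 in the primary-only list for weakened events.

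The limit runs through a continuous range of ratios. Just inside it, the event at 322935 on Primary000188F had a strength of 49.9 in the diploid list and 59.3 in the primary-only list, a log2 ratio of -0.25. Next to it were those at 1491949 on Primary000027F, with 32 (diploid) and 38 (primary-only), and at 2587876 on Primary000001F, with 38 (diploid) and 45 (primary-only). Just outside were 3261120 on Primary000021F, with 200.9 (diploid) and 239 (primary-only), 777842 on Primary000195F, with 116 (diploid) and 138 (primary-only), and 2702768 on Primary000042F, with 49.7 (diploid) and 59.2 (primary-only). The histogram of the ratio shows a narrow peak at 0 and a broad shoulder below the limit.

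**Figure D1:**
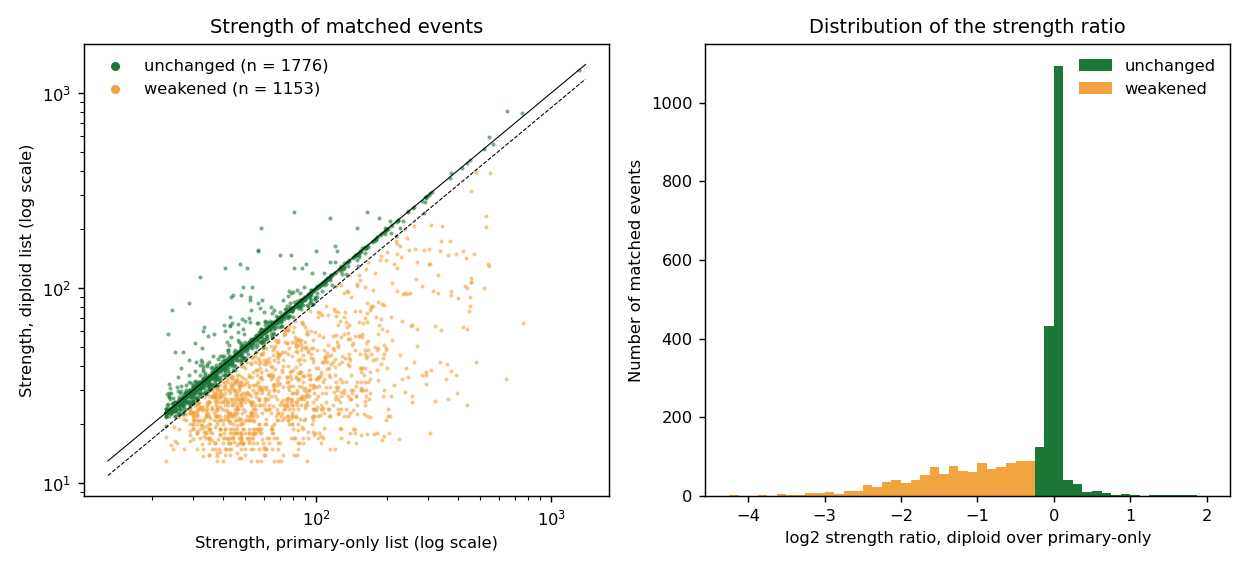
Left, strength in the diploid list against strength in the primary-only list, both on log scales, for the 1776 unchanged and 1153 weakened events; the solid line is equality and the dashed line the log2 ratio of -0.25. Right, number of matched events by log2 ratio (diploid over primary-only); unchanged events pile up at 0, where 793 have equal strengths, and weakened events spread down to -4.23.

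The ratio lay between -0.25 and 0.25 at 1690 of the unchanged events (95.2%), and 86 had a higher ratio, so the name covers some raised strengths too. In these 86 the diploid event lay over 5 bp away at 51 (59.3%, 48.7 to 69.1%), against 205 of the other 1690 (12.1%, 10.7 to 13.8%). Another primary-only event lay within 500 bp of 50 of the 86 (58.1%, 47.6 to 68.0%), against 159 of the 1690 (9.41%, 8.11 to 10.9%). All 15 with a log2 ratio of 1 or more had their diploid event over 5 bp away. A stricter reading, with a ratio up to 0.25 and the diploid event within 5 bp, left 1485 events (83.6%).

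Some of the raised strengths stood where 2 close primary-only events shared a single diploid event. There were 20 such pairs with both members unchanged, and the median ratio of the diploid strength to the summed primary-only strengths was 0.968 over them. With both members unchanged, the diploid strength has to be near or above that of the stronger member. The ratio over these pairs is therefore set in part by the choice of events. Over the 30 shared diploid events with at least 1 unchanged member the median was 0.683, and over all 48 shared diploid events it was 0.387, with quartiles of 0.194 and 0.947. At Primary000049F the diploid event had a strength of 245.0, the sum of the pair at 582709 and 582768 in the primary-only list. At Primary000047F it had 155.0 against a sum of 157.0 for the pair at 80037 and 80126, and at Primary000066F 126.9 against 128.1 for the pair at 2011327 and 2011404. Not every pair added up: at Primary000008F the diploid strength was 228.9 and the sum for 4086398 and 4086484 was 299.6. These 4 examples were chosen after their values were seen.

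The highest ratios among unchanged events of at least 100 in the primary-only list mostly had such a close neighbour. The event at 4086484 on Primary000008F had a strength of 228.9 in the diploid list and 115 in the primary-only list (log2 ratio 0.99), and 4086398 on the same contig had 228.9 (diploid) and 184.6 (primary-only), a ratio of 0.31. The events at 80126 on Primary000047F, 582709 on Primary000049F, 2618536 on Primary000022F, 463240 on Primary000160F and 382159 on Primary000101F had ratios from 0.34 to 0.63. Each of these 7 had another primary-only event 43 to 117 bp away and its diploid event 17 to 69 bp away. Primary000136F at 486599 (0.24) and Primary000254F at 73278 (0.17) had their diploid event 1 bp away and another primary-only event 53 and 48 bp away. The event at 1024416 on Primary000033F stood alone, with the nearest other primary-only event 145983 bp away, and had 806 in the diploid list and 648.5 in the primary-only list (0.31).

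The strongest unchanged event was the strongest of both lists. It covered 358182 to 358382 on Primary000101F, and its strength was 1315 in the diploid list and 1315 in the primary-only list, with a −log10 q of 180 in the diploid list and 181 in the primary-only list. Primary000280F at 299890 (299791 to 299991) had 788.7 (diploid) and 749.3 (primary-only). Primary000033F at 1024416 (1024317 to 1024517) had 806 (diploid) and 648.5 (primary-only), and Primary000273F at 2619 (2520 to 2720) had 547 (diploid) and 565.7 (primary-only). Of these, Primary000033F moved most. Primary000028F at 2574933 (2574834 to 2575034) had 596.5 (diploid) and 543.3 (primary-only), with the diploid event 51 bp away. Primary000014F at 4464095 (4463996 to 4464196) had 518 (diploid) and 517.9 (primary-only). On Primary000026F, 750404 (750305 to 750505) had 451 in each list and 438262 (438163 to 438363) had 440 in each. Primary000054F at 448605 (448506 to 448706) had 413 (diploid) and 418.9 (primary-only), and Primary000273F at 2674 (2575 to 2775) had 387 (diploid) and 374.3 (primary-only). Apart from Primary000033F, where the diploid strength was the higher, these 10 differed between lists by a log2 ratio of at most 0.13.

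High strength went with a low −log10 p at several of them. Over a strength of 300 the primary-only list had 83 events, of which 14 were unchanged, 53 weakened and 16 lost. The 5 of the 83 with a −log10 p below 0.1 per unit of strength were all unchanged (100%, 56.6 to 100%). They lay at Primary000280F, Primary000033F, Primary000054F and both positions of Primary000273F. The positions on Primary000273F are 55 bp apart, so these 5 events are not independent. At 2674 on Primary000273F the −log10 p was 9.36 in the diploid list and 5.8 in the primary-only list, while 438262 on Primary000026F, with a similar strength, had 113 in each. Coverage of the control at these positions was not analysed here.

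Where strength was equal in the lists, the −log10 p of unchanged events was mostly equal too. Of the 793 with equal strengths, 635 (80.1%, 77.2 to 82.7%) also had an equal −log10 p, 129 had a higher and 29 a lower one in the diploid list. The −log10 q was lower in the diploid list at all 635 of those with equal strength and p, by a median difference of -0.34. A −log10 q of at least 5 in the primary-only list was reached by 916 unchanged events, or 51.6% (49.3 to 53.9%), beside 48.1% of all primary-only events, against 883 weakened (76.6%) and 1406 lost events (37.7%). In each of the 7 strength groups the median −log10 p was higher for unchanged than for lost events. For strengths over 40 to 50 the median was 6.46 for 283 unchanged events, 5.55 for 176 weakened and 4.3 for 836 lost events. For strengths over 100 to 200 it was 28.1 for unchanged, 27.1 for weakened and 23.2 for lost events. Against weakened events the order turned at both ends. Up to a strength of 30 the median was 3.36 for unchanged and 3.5 for weakened events, and over 200 it was 58.7 for unchanged, 70.1 for weakened and 56.4 for lost events. Strengths were not equal within that last group, with medians of 288.7 for unchanged, 303 for weakened and 246.8 for lost events in the primary-only list. Nor were they up to a strength of 30, with medians of 26.4 for 449 unchanged and 29 for only 35 weakened events.

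The share of unchanged events was highest among the weakest events. It was 57.2% (53.7 to 60.6%) of the 785 events with a primary-only strength up to 30 and 24.2% (22.3 to 26.3%) of the 1798 over 30 to 40. In the groups over 40 it lay between 19.0% (14.2 to 25.0%, over 200) and 22.6% (20.3 to 25.0%, over 50 to 70), with overlapping intervals. The other classes moved across the same range. Weakened events made up 4.46% of the weakest and 51.5% of the strongest group. Lost events made up 38.3% of the weakest group, 67.0% of those over 30 to 40 and 29.5% of the strongest. The smallest strength deposited was 13 in the diploid list and 23 in the primary-only list, so a fall is recorded only down to 13.

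Unchanged events were most frequent on contigs with no haplotig event under their number. The name of each haplotig gives the primary contig it belongs to, and 259 primary contigs with events had no such haplotig event. On these, 611 of 926 primary-only events were unchanged (66.0%, 62.9 to 69.0%), against 1165 of 5737 (20.3%, 19.3 to 21.4%) on the 168 contigs that had some. So 34.4% (32.2 to 36.6%) of unchanged events lay on contigs without haplotig events, where 13.9% of all primary-only events lay, compared with 7.03% (5.69 to 8.65%) of weakened and 6.27% (5.53 to 7.09%) of lost events. The unchanged share was 44.8% (37.0 to 53.0%) with 1 haplotig event, 29.8% (25.0 to 35.1%) with 2 to 3, 24.4% (22.3 to 26.7%) with 4 to 10, 16.9% (15.5 to 18.4%) with 11 to 30 and 17.3% (15.3 to 19.4%) with more. A contig can have a haplotig without an event, so the count of haplotig events does not show where haplotigs exist. Haplotig events also come from the same diploid list whose strengths define unchanged events. The count and the class are therefore not independent, and their relation can be set in part by that.

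**Figure D2:**
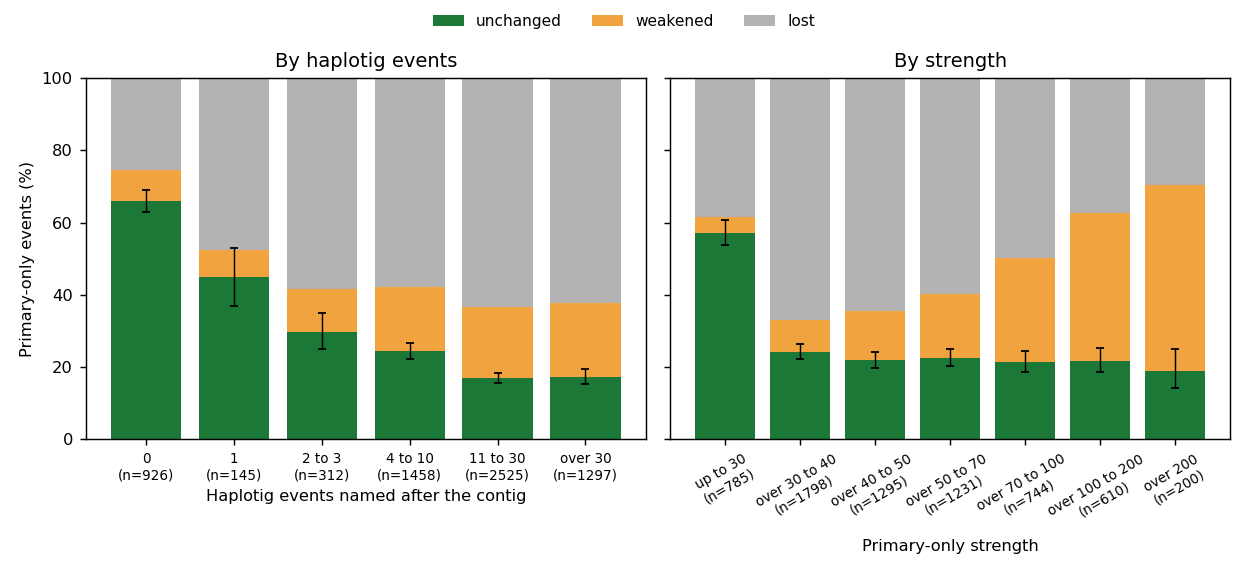
Share of unchanged, weakened and lost events among primary-only events, in percent, by the number of diploid-list events on haplotigs named after the contig (left) and by primary-only strength (right); error bars are 95% Wilson intervals on the unchanged share and n is the number of events. The unchanged share is 66.0% on contigs without haplotig events and 17.3% where there are over 30, and by strength it is 57.2% up to 30 and level above 40.

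Contigs without haplotig events also held fewer and weaker events. They had a median of 2 primary-only events, with at most 18, against 25 and at most 257 on the others, and their median strength was 36 against 47. Their last event lay at a median position of 255354 bp, against 1745630 bp on the others. Contig lengths were not used here, and their part in the result was not tested. Within contigs of 5 to 20 events the unchanged share was 64.6% (60.5 to 68.5%) of 545 events without and 30.8% (27.3 to 34.5%) of 640 events with haplotig events. Among events with a strength over 40 it was 64.2% (59.3 to 68.8%) of 391 without and 17.3% (16.2 to 18.6%) of 3689 with haplotig events. Up to a strength of 40 it was 67.3% (63.2 to 71.1%) of 535 without and 25.6% (23.8 to 27.6%) of 2048 with haplotig events. Thus on contigs without haplotig events the share differed little between strengths up to and over 40. The difference between contigs without and with haplotig events was present within each of these strata. Contigs with over 20 events, which held 5065 primary-only events, all had haplotig events and allow no such comparison. The strata by strength were not matched for events per contig. All primary-only events were unchanged on 113 of the 259 contigs without haplotig events, 12 of which had at least 5 events, and on 1 of the 168 others.

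Unchanged events followed each other along the contigs. The event after an unchanged event was unchanged in 984 of 1542 cases (63.8%, 61.4 to 66.2%), against 164 of 1105 (14.8%, 12.9 to 17.1%) after a weakened and 375 of 3589 (10.4%, 9.49 to 11.5%) after a lost event. After an event of any class it was unchanged in 1523 of 6236 cases (24.4%). These shares pool contigs that differ widely in their unchanged share. Such differences raise the share after an unchanged event, and lengthen runs, even without any order within a contig. Order within contigs was not tested. On contigs with haplotig events alone these shares were 57.9% (55.0 to 60.8%) after an unchanged, 12.3% (10.5 to 14.5%) after a weakened and 9.25% (8.32 to 10.3%) after a lost event. After an event of any class the share there was 19.4%. On those contigs the share after an unchanged event was 72.4% (63.2 to 80.0%) for a next event within 1 kb, 57.8% (52.6 to 63.0%) for over 10 to 50 kb and 52.2% (46.5 to 57.7%) for over 100 kb. After an event of any class it was 22.4, 16.1 and 27.1% at the same distances. Of the 637 unchanged events that followed an unchanged event there, 76 lay within 1 kb of it. Over all contigs, the 20 pairs with both members unchanged and a single shared diploid event lay 58 to 146 bp apart. Each such pair counts here as an unchanged event followed by another, which adds to the share within 1 kb and to the runs below.

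**Figure D3:**
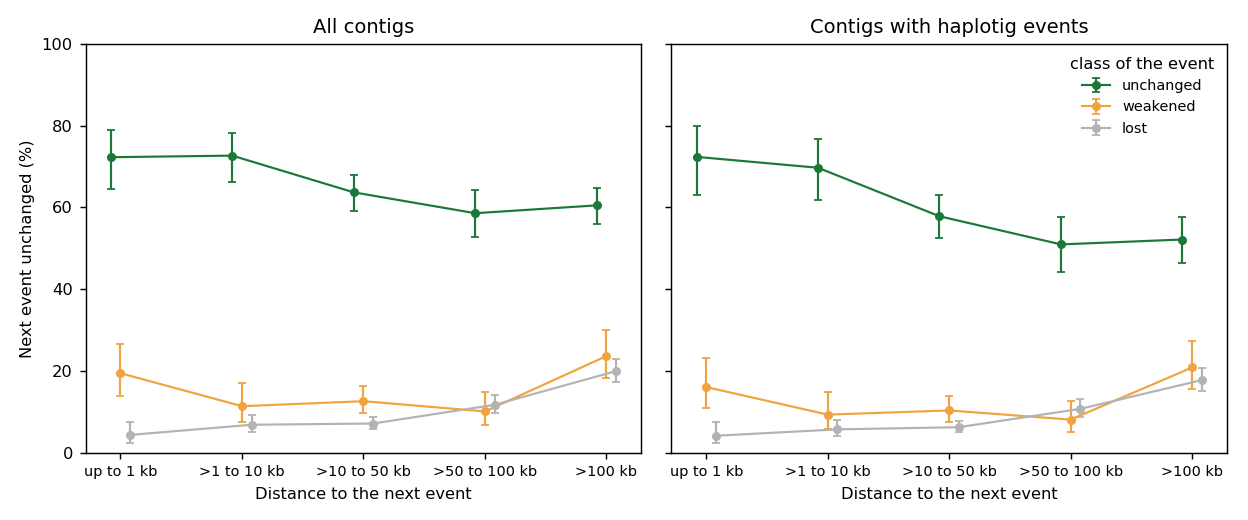
Share of events whose next primary-only event along the contig was unchanged, in percent with 95% Wilson intervals, by the distance to that next event, for unchanged, weakened and lost events on all contigs (left) and on contigs with haplotig events (right). After an unchanged event the share stays above 50% at every distance, and after weakened and lost events it stays below 24%.

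The unchanged events fell into 792 uninterrupted runs, of which 431 were single events and 86 had at least 5. These 86 runs held 632 events, 35.6% of the unchanged. The longest, 14 events over 254 kb from 78534 to 332473, opened Primary000171F. Strengths in it were 34.5 to 301 in the primary-only list, and 8 of the 14 were equal in the diploid list. The 9 events that came next were 8 lost and 1 weakened, and the weakened event, at 474485, had 23 in the diploid list and 125 in the primary-only list. A lone unchanged event followed at 932483, with 182 in each list, and a lost one at 1107778.

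Primary000105F had a similar layout. Its first 12 events, from 66448 to 794250, were all unchanged, with log2 ratios from -0.16 to 0.08 and 7 equal strengths. Its other 20 events, from 930820 on, comprised 3 weakened and 17 lost. Their strengths in the primary-only list reached 128.8, at 930820, where the diploid list had 42. Only 4 haplotig events carried the number of each of these 2 contigs.

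Runs of 12 or 13 also lay on contigs with 10 to 82 haplotig events under their number. On Primary000001F 13 events in a row from 4545809 to 4785432 were unchanged, with weakened events on either side, while the contig as a whole had 27 unchanged, 24 weakened and 104 lost events. Primary000000F had 12 from 2445406 to 3103835, Primary000013F 12 from 4803630 to its last event at 5233746, Primary000026F 12 from 739676 to 1165666 and Primary000030F 12 from 2792811 to 3239137. Primary000057F, with 1 haplotig event, had 13 from 642773 to 2884257, all of its events but the first, with a median strength of only 29.

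**Figure D4:**
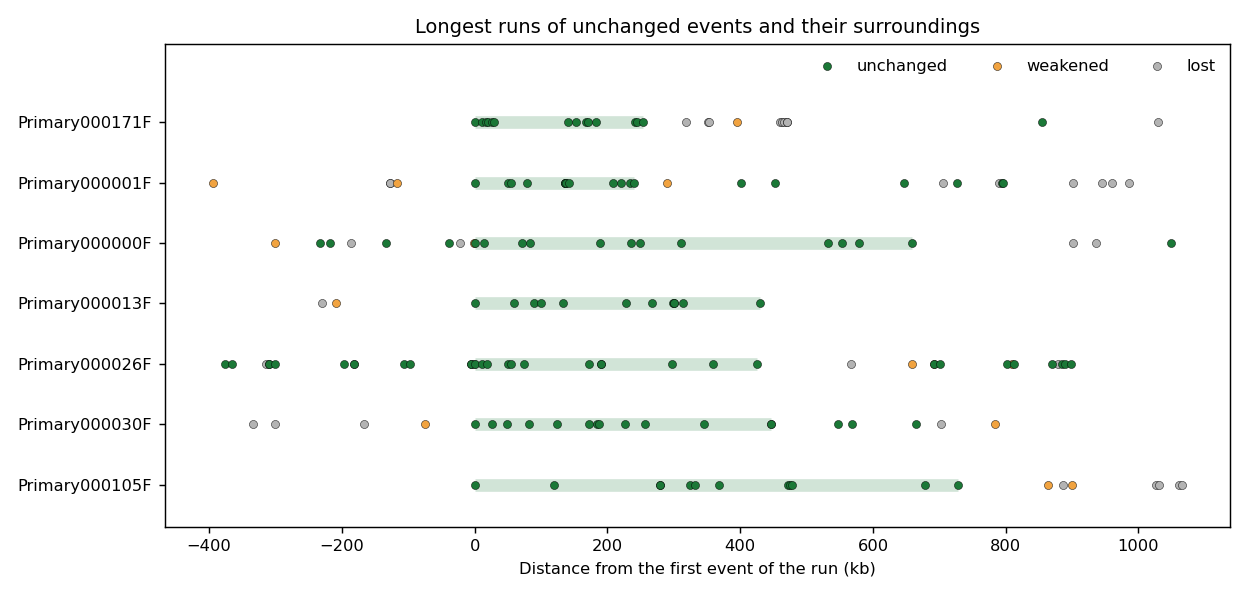
Positions of unchanged, weakened and lost primary-only events around 7 of the 8 longest runs of unchanged events, as distance from the first event of the run, shown from 400 kb before to 1100 kb after it; the shaded bar is the run. The run on Primary000057F, over 2241 kb, is left out for scale. On Primary000171F and Primary000105F the events after the run are mostly lost or weakened, with 1 unchanged event farther on in Primary000171F.

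Contigs differed widely in their unchanged share. Unchanged events occurred on 356 of 427 contigs, and the 10 contigs with most of them held 331 (18.6%). Primary000000F had 55 of 257 events unchanged (21.4%), Primary000026F 47 of 83 (56.6%), Primary000005F 36 of 150 (24.0%) and Primary000003F 31 of 165 (18.8%). Primary000010F had 30 of 88, Primary000013F 30 of 77, Primary000001F 27 of 155, Primary000033F and Primary000047F 26 of 51 each, and Primary000002F 23 of 232 (9.91%). Over the 91 contigs with at least 10 matched events the share ran from 2.17 to 100%, with a median of 22.0% and quartiles of 12.6 and 45.3%.

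Among the 91 contigs with at least 10 matched events, those with the highest shares had few or no haplotig events, and those with the lowest had many. Primary000115F had all 11 events unchanged, spread from 201114 to 1572639, with log2 ratios of -0.06 to 0.06 and strengths of 27.3 to 48. Primary000057F had 13 of 14, Primary000083F 12 of 13, and Primary000172F and Primary000502F 9 of 10 each. Of these 5 contigs, Primary000057F had 1 haplotig event and the other 4 had 0. All 10 events of Primary000502F lay in 1 cluster, from 117094 to 126171. At the low end, Primary000106F had 1 of 46, Primary000020F 3 of 80, Primary000029F 3 of 75, Primary000041F 2 of 40 and Primary000084F 2 of 36, with 15 to 38 haplotig events each. The contigs at the low end also had more primary-only events in all, 36 to 80 against 10 to 14. A contig of 10 to 14 events enters this ranking only when most of its events are matched. The contrasts between the ends are therefore set in part by the limit of 10 matched events.

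In 7 places at least 5 unchanged events lay in a cluster with neighbours up to 5 kb apart, 52 events in all. When only mutually nearest events were matched there were 6 such places, and with an upper log2 ratio limit of 0.25 there were 5. No count by the same rule is given for all primary-only, weakened or lost events. Whether unchanged events cluster more than others therefore cannot be read from these numbers. Another primary-only event lay within 1 kb of 276 unchanged events (15.5%, 13.9 to 17.3%), beside 15.3% of all primary-only events, 21.9% (19.6 to 24.3%) of weakened and 13.2% (12.2 to 14.4%) of lost events. The largest cluster, on Primary000033F from 1821194 to 1837546, had 15 unchanged and 3 weakened events. Its strongest, at 1835700, had 364.9 in the diploid list and 371.9 in the primary-only list, and the one at 1822963 had 172.9 (diploid) and 172.3 (primary-only). The event at 1831041 moved most, with 62.9 (diploid) and 33.4 (primary-only).

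Primary000502F had 9 unchanged events and 1 weakened from 117094 to 126171, with 4 equal strengths. The highest there was 117094, with 149.5 in the diploid list and 150.9 in the primary-only list, followed by 120205, with 112 in each. Primary000081F had 8 unchanged events and no other from 372467 to 380285, with log2 ratios between -0.04 and 0.03 although 9 haplotig events carry its number. Primary000062F had 5 with no other event between them, from 828759 to 831191, where the event at 829801 had 175.7 (diploid) and 179.7 (primary-only). Primary000066F had 5 with no other from 2006548 to 2012986, including the pair named above. That pair shares a single diploid event, so this cluster reaches 5 only with both members counted.

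The remaining 2 clusters were mixed. On Primary000038F 5 unchanged events and 1 weakened lay between 3121966 and 3128604, with strengths of 33 to 73 in the primary-only list. On Primary000009F 5 unchanged, 1 weakened and 1 lost event lay between 1664198 and 1668592. The first 3 unchanged events there were spaced by 547 and 546 bp, and their strengths were 40, 32.1 and 42 in the diploid list and 40, 37 and 30.9 in the primary-only list.

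**Figure D5:**
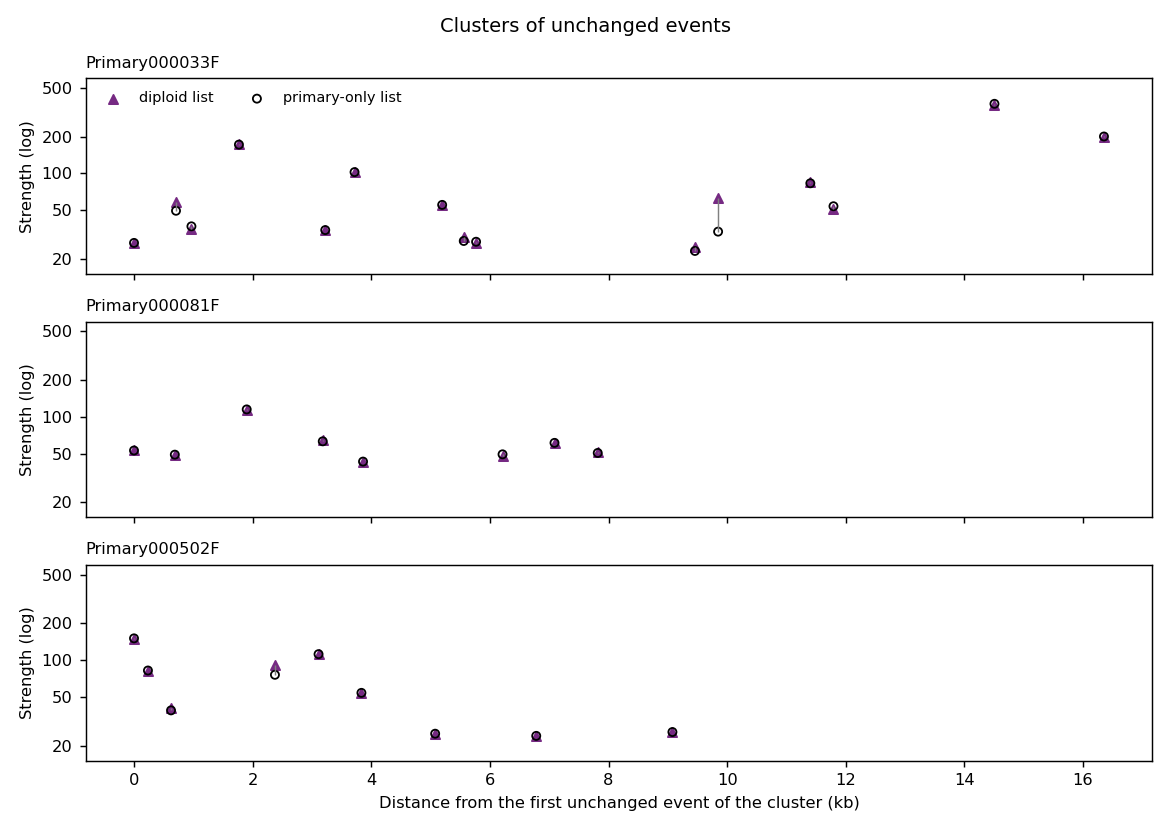
Strength (log scale) of the unchanged events in the 3 clusters with at least 8 of them, by distance in kb from the first unchanged event of the cluster; triangles are the diploid list and open circles the primary-only list, joined by a grey line. The symbols overlap at most events, and the widest gap is at 1831041 on Primary000033F, with 62.9 in the diploid list and 33.4 in the primary-only list.

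The position of an unchanged event was mostly shifted by 1 bp between the lists. The diploid event lay exactly 1 bp away at 1472 of 1776 (82.9%, 81.1 to 84.6%), 722 times lower and 750 times higher, and at the same position 4 times. For weakened events 881 of 1153 (76.4%, 73.9 to 78.8%) were exactly 1 bp away. A diploid event 21 to 100 bp away, which can be another site, was matched to 183 unchanged (10.3%, 8.97 to 11.8%) and 204 weakened events (17.7%, 15.6 to 20.0%).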

How the data were processed

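DAP-seq events of 1 MYB24 library were analysed; the pIXHALO control library served the authors as negative control, per the series' design text. Reads were processed with Trim Galore 0.6.6, cutadapt 3.1 and Bowtie2 2.3.2, per the submitters' processing notes, and the deposited file names give GEM as the event caller (its version, settings and handling of reads with several positions: not given in the sources used here). Files have no header and were read in narrowPeak order. The deposited signal (strength) was used as it stands (scaling: not given in the sources used here). Per event, the −log10 p and −log10 q are the authors' deposited values. The deposited score was not analysed. Each interval is 201 bp wide, and positions are those in the event names.

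Ratios were formed as log2 of diploid over primary-only strength. The code for matching and classes was checked on simulated events set far apart, with ratios kept off the limit. That check does not cover close events or shared diploid events. Unchanged events were chosen from strengths in both lists, and the choice of events and limits was made with earlier results of these data known. Events named are the 10 strongest, the 10 highest ratios at a primary-only strength of at least 100, 3 on each side of the limit, the longest runs with ties, the 10 contigs with most unchanged events, the 5 highest and 5 lowest shares among contigs with at least 10 matched events, and all clusters of at least 5. Strata by strength and by events per contig were added after seeing the data. Gene lists were not used, since no gene models of the assembly were at hand. Work was done in Python 3.11.15 with scipy 1.17.1, pandas 2.3.3, matplotlib 3.10.9 and numpy 2.4.6.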

Additional observations from a re-analysis of the deposited data

How the results depend on the processing

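With 1 library per group no library could be left out. No paired analysis was possible because MYB24 and pIXHALO have a single library apiece. Of 100 values under alternatives, 56 stayed within the 95% interval of the value in the report (for counts, within 1.5 times), and the 44 others follow. Main values were 1776 events, 26.7% of primary-only and 60.6% of matched events, 44.7% with equal strength, medians of 41 (diploid) and 40.5 (primary-only) for strength and 5.13 for −log10 q, 34.4% on contigs without haplotig events, 76.6% of next matched events unchanged, and 7 clusters. Matching within 20 bp gave 23.9% of primary-only events, 62.7% of matched events and 47.5% with equal strength. A ratio limit of -0.1 gave 24.3, 55.3 and 48.9% for the same shares. A limit of -0.5 gave 29.3, 66.7 and 40.6%, with 79.6% of next matched events unchanged. An added upper limit of 0.25 gave 25.4% of primary-only and 57.7% of matched events, with 73.6% of next matched events unchanged. Diploid strengths divided by 0.630, the ratio of the median strengths, gave 33.1 and 75.2% of primary-only and matched events, 0.045% with equal strength, a diploid median of 61.9, 30.6% on contigs without haplotig events and 82.6% of next matched events. Asking for a −log10 q of 5 or more in each list gave 862 events, 66.7% of matched events, 37.2% with equal strength, medians of 62 (diploid), 60.5 (primary-only) and 9.74 (−log10 q), and 4 clusters. Primary-only strengths at or above the median gave 735 events, 22.0% of primary-only and 45.9% of matched events, 37.6% with equal strength, medians of 68, 66 and 10.95 in the same order, 27.8% on contigs without haplotig events, 68.3% of next matched events and 2 clusters. Linking neighbours up to 2 kb gave 4 clusters. For next matched events up to 10 kb away the unchanged share was 84.6%. All shares of next matched events given here are those after an unchanged event. After a matched event of any class, the next matched event was unchanged in 58.2% of cases. That share was 61.4% up to 1 kb away and 70.6% over 1 to 10 kb away. Among alternatives chosen after seeing the data, contigs with 5 to 20 events gave 46.3% of primary-only events and 64.1% of unchanged events on contigs without haplotig events. Strengths over 40 gave 21.8 and 28.2% for these. The base differs too: on contigs with 5 to 20 events, 545 primary-only events lay on contigs without haplotig events and 640 on the others. At strengths over 40 these numbers were 391 and 3689, and for strengths at or above the median no such base is given. Contigs with haplotig events alone gave 20.3% of primary-only events and 71.4% of next matched events. Fewer events enter under the stricter limits by construction. Depth behind single events is unknown.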
